A study of Toxocara canis with 2 samples.

Results

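The major sperm protein domain family of Toxocara canis, the roundworm of dogs, comprised 99 of 70267 unigenes seen in an adult male and an adult female worm. Unigenes stand for assembled transcripts, and related contigs were clustered under a name starting with CL. Members were chosen by their best protein match in the authors' annotation table, from Nr or Swiss-Prot descriptions naming major sperm protein, an MSP domain, MFP1, sperm-specific class P or other sperm-specific proteins, a motile sperm domain or a vesicle-associated membrane protein-associated protein (VAP). By description they fell into 62 MSP, 15 MFP1, 17 sperm-specific (ssp), 3 VAP and 2 motile sperm domain (Mospd) unigenes. The study compared polyadenylated RNA from the entire body of adult worms of the strain Rongchang, with 1 male library and 1 female library. No replicate exists, so differences between the sexes carry no test and intervals cover counting error only. In whole-body RNA, fewer cells of a type and less RNA per cell cannot be told apart.

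Nematode sperm have no flagellum and crawl by a pseudopod. Filaments of major sperm protein (MSP), assembled at the leading edge and taken apart at the rear, take the place that actin has in other crawling cells. Accessory proteins of the same fibers, such as MFP1, change the rate at which they grow in Ascaris sperm extracts. The MSP fold is not restricted to sperm. It is also the cytosolic domain of VAP and motile sperm domain proteins, which sit in the membrane of the endoplasmic reticulum of animal cells and bind partners at contacts between membranes. In Caenorhabditis elegans, MSP is in addition a signal that sperm release to oocytes.

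The male library held 18.4 M fragments and the female library 19.8 M. Levels are given in FPKM, fragments scaled to unigene length and library total. A count of 3 fragments, the most that a count of 0 allows, equals on a 1 kilobase unigene 0.163 FPKM in the male worm against 0.152 FPKM in the female worm. A list of 32 vitellogenin and ovarian message unigenes took 0.106% of male and 16.1% of female fragments. Of these, 13 had their higher level in the male worm and 19 in the female worm. The sperm fiber proteins MFP2 and MFP3 took 1.66% of male and 0.000657% of female fragments, with all 11 unigenes higher in the male. Unigenes with myosin, calponin or twitchin in their description, taken as muscle, took 0.261% of male and 0.266% of female fragments. Of these 67, 22 had their higher level in the male worm and 45 in the female worm. Unigenes described with cathepsin, aspartic protease or trypsin, taken as intestine, took 0.283% of male and 0.657% of female fragments. Of these 44, 23 had their higher level in the male worm and 21 in the female worm. Both lists rest on these words alone and are not limited to the tissue named. Myosin VI, read below with the genes of sperm development, also carries the word myosin. The part of these other tissues in the family's values was not tested.

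Across the family, transcripts were far more abundant in the male than in the female worm. Members together took 3.06% of male fragments (Clopper-Pearson 95% interval 3.05 to 3.07%) and 0.0168% of female fragments (0.0162 to 0.0174%). Of the 99 members, 96 were higher in the male library and 3 in the female library, and 56 had 0 female fragments while none had 0 male fragments. A further 18 had 1 to 3 female fragments. By comparison, 55.7% of the 21280 unigenes in the authors' table were higher in the male library, against 97.0% of members. Among those 21280, 6538 had 0 female fragments and 1356 had 0 male fragments. Over all 70267 unigenes, 11832 had 0 female fragments and 5649 had 0 male fragments. The direction and size for the family are a description only. Every unigene with a name comes from the authors' deposited table, which holds unigenes the authors had called different between the sexes. A family member at like levels in both worms would therefore carry no name here.

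A size rule asked for a level of 5 FPKM or more in 1 of the libraries and a 4-fold difference on the log2(FPKM + 1) scale. It was met by 68 members on the male side and 0 on the female side. In the authors' table as a whole 14.8% of 21280 unigenes met it on the male side and 7.84% on the female side. Among its 8567 unigenes with an Nr description the shares were 15.9% on the male and 8.79% on the female side, and over all 70267 unigenes 4.5% on the male and 2.38% on the female side. Of the 32 vitellogenin and ovarian message unigenes, 4 met it on the male side and 18 on the female side. Of the 31 family members that did not meet it, 28 stayed under 5 FPKM in both libraries and 3 reached 5 FPKM with a smaller difference. The median log2((male FPKM + 1)/(female FPKM + 1)) was 4.25 over the 85 members whose mean reached 1 FPKM, against 1.05 over 17574 unigenes of the table and -0.20 over 44525 of all unigenes. With counts of 0 set to 3 fragments and no pseudocount, the family's median was 6.39 and the table's 1.32.

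**Figure D1:**
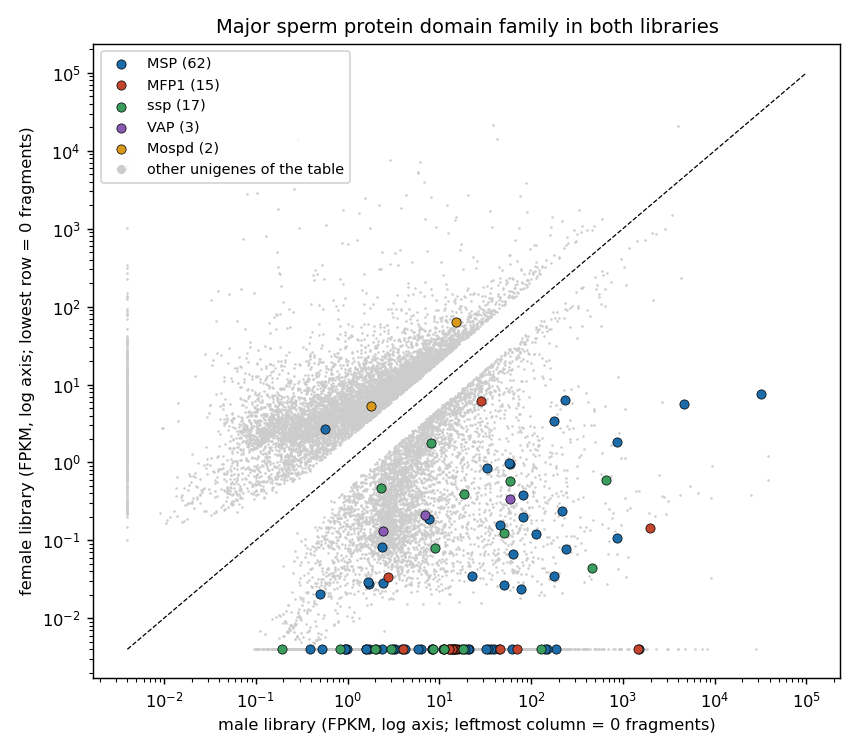
Level of every family member in the male library (horizontal, FPKM, log axis) and in the female library (vertical, FPKM, log axis), coloured by subtype over the other unigenes of the authors' table in grey; the dashed line marks equal levels, and 0 fragments are drawn at the edge. The band around the line is empty because the table lists called unigenes only; 96 members lie below the line and 3 above it.

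The male levels covered a wide range. In the male library 5 members stood at or above 1000 FPKM, 14 between 100 and 1000, 42 between 10 and 100, 29 between 1 and 10 and 9 under 1 FPKM. All 5 of the highest were among the 100 most abundant unigenes of that library. These 5 held 80.3% of the family's male fragments, and the most abundant of them held 48.8%. In the female library, by contrast, 10 members reached 1 FPKM and 15 had at least 10 fragments.

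**Figure D2:**
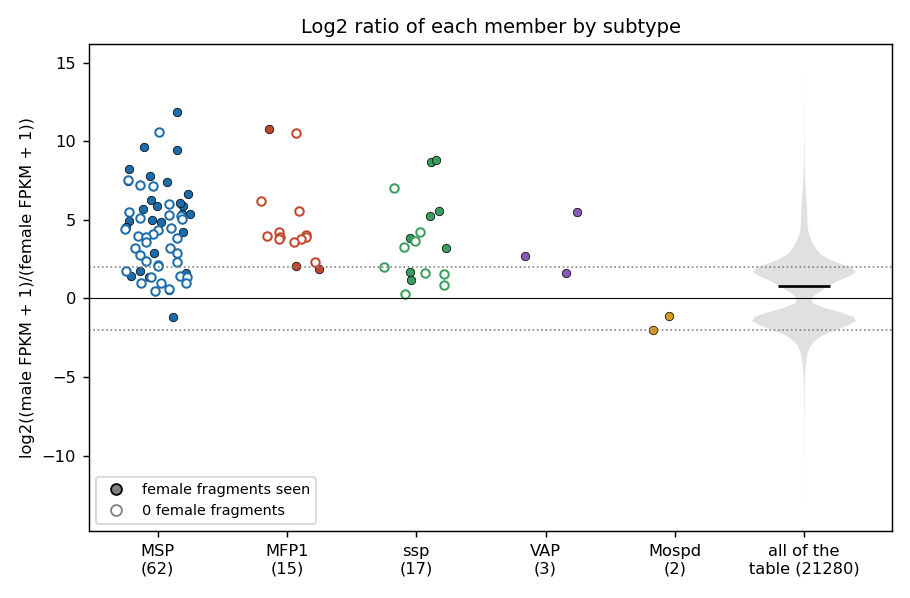
Log2((male FPKM + 1)/(female FPKM + 1)) of each member by subtype, with open circles for members without female fragments, beside the distribution over all 21280 unigenes of the authors' table (grey, median 0.78 with no filter on low values). Dotted lines mark the 4-fold size; the 62 MSP, 15 MFP1, 17 ssp and 3 VAP unigenes lie above 0 with 1 MSP exception, and both Mospd unigenes lie below it.

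Unigenes whose Nr match was a major sperm protein itself numbered 5, and all 5 were higher in the male worm under the size rule. They were short, at 296 to 522 bases. CL2081.Contig1, which matched MSP isoform beta with an E-value of 2e-70, stood at 32102 FPKM in the male worm (274109 fragments) against 7.4996 FPKM in the female worm (69 fragments). It ranked 3 among all unigenes of the male library and 11149 in the female library, and held 99.1% of the male fragments of these 5. Unigene20433 had the same description with a larger E-value (2e-29) and stood at 56.9 FPKM in the male worm against 0.996 FPKM in the female worm, a 57.1-fold male excess (28.7 to 133). CL2081.Contig1 differed far more, at 4281-fold (3382 to 5502), so unigenes of the same description did not share 1 ratio.

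The other 3 had no female fragments. Unigene30703, a match to major sperm protein 3 of Brugia malayi, stood at 187 FPKM in the male library and was at least 644-fold higher there. CL2135.Contig6 was at 20.6 FPKM, at least 45.6-fold higher, and CL1079.Contig2 at 19.1 FPKM, at least 37.4-fold higher. Their bounds are set by the male counts of 127 and 104 fragments. How fragments were divided among any near-identical MSP copies is not given in the sources used here, so the level of any single copy is uncertain.

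MSP-domain proteins of Ascaris, which carry the MSP fold and are numbered 1 to 5, were the best match of 19 unigenes. All 19 were higher in the male library, 14 under the size rule, and 12 had no female fragments. Unigene6928, a match to MSP-domain protein 4 and the 15th most abundant unigene of the male worm, stood at 4612 FPKM in the male worm against 5.70 FPKM in the female worm. Its 108 female fragments exceeded those of CL2081.Contig1 although its male level was lower. Unigene30675, a match to MSP-domain protein 5, stood at 1512 FPKM in the male library with 0 female fragments, at least 9964-fold higher.

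The remaining numbered types had lower male levels than these and were also higher in the male library. Unigene30695, a match to the variant of MSP-domain protein 1, had 215 FPKM in the male worm against 0.238 FPKM in the female worm, where it had 3 fragments, a ratio of 903 (308 to 4380). Unigene5068, the sole match to MSP-domain protein 3, stood at 33.2 FPKM in the male worm against 0.844 FPKM in the female worm and differed 39.3-fold (26.3 to 61.7). Matches to MSP-domain protein 2 of Ascaris numbered 3, with male levels of 0.980 to 46.0 FPKM and 2 female fragments in all.

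Several weak matches to MSP-domain protein 4 came from a mixed cluster. CL592 held 4 members at 1.66 to 8.40 FPKM in the male and at most 0.0296 FPKM in the female library. The other 5 contigs of that cluster were no members, and 4 of them matched subunit 12 of the 26S proteasome, a protein-degrading complex. Those 4 stood at 2.17 to 2.85 FPKM in the male and 0.0630 to 0.172 FPKM in the female library, so they were also higher in the male. Only CL592.Contig1 among the cluster's members met the size rule.

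Most MSP-domain unigenes, 35, had their best match in a filarial worm such as Loa loa or Brugia malayi. Of these, 34 were higher in the male library, 22 under the size rule, and 20 had 0 female fragments, with a median log2 ratio of 5.50 over the 27 whose mean reached 1 FPKM. Unigene26608 stood at 861 FPKM in the male worm against 0.107 FPKM in the female worm, where it had 1 fragment, a ratio of 8058 (1446 to 318303). Unigene13486 was at a like male level of 852 FPKM but had 55 female fragments, at 1.85 FPKM, and differed 461-fold (354 to 612). The intervals of these neighbours in male abundance do not overlap.

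Lower ratios occurred among abundant members of the same class. Unigene21297 had 235 FPKM in the male worm against 6.37 FPKM in the female worm, 37.0-fold higher in the male (29.6 to 46.7). Unigene4296 had 179 FPKM in the male worm against 3.40 FPKM in the female worm, 52.7-fold higher (38.3 to 74.8). Both matched the sperm-specific protein ZC168.6 of C. elegans in Swiss-Prot, as did Unigene26608, whose interval lies above theirs.

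A group of 6 filarial matches described as MSP domain proteins with a Glu- and Lys-rich centre was higher in the male throughout. Unigene27486 was its most abundant member, at 238 FPKM in the male worm against 0.0776 FPKM in the female worm, where it had 1 fragment, a ratio of 3063 (549 to 121039). CL952.Contig2, at 5.87 FPKM in the male library with 0 female fragments, lay closest to the size threshold among MSP unigenes that met it, with a log2 ratio of 2.78. Of all 62 MSP unigenes, 43 met the rule and 19 stayed under 5 FPKM in both libraries.

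Other abundant filarial matches were also far higher in the male worm. Unigene27771 had 176.5 FPKM in the male worm against 0.0350 FPKM in the female worm, from 1 fragment, a ratio of 5045 (905 to 199306). Unigene30712 and Unigene26612 had 149 and 141 FPKM in the male worm and no female fragment. These, Unigene13486, Unigene30730 and Unigene28768 matched a retrotransposon-like protein in Swiss-Prot, although Nr named each an MSP domain protein. For Unigene30730 the E-value was larger in Nr (5e-12) than in Swiss-Prot (6e-23), so the MSP name is its weaker match. For the others it was smaller in Nr. All 5 met the size rule.

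At the low end stood whole clusters of long contigs. The 4 contigs of CL2469 had 0.529 to 2.39 FPKM in the male worm with 0 female fragments, and the 3 member contigs of CL5664 had 0.395 to 1.72 FPKM with 1 female fragment in all. None reached 5 FPKM. A further 3 unigenes were MSP by Swiss-Prot alone, and 2 of these, CL5314.Contig2 and CL5314.Contig1, matched a TB2/DP1, HVA22 family protein in Nr. CL5314.Contig2 had 22.6 FPKM in the male worm against 0.0351 FPKM in the female worm, from 1 fragment, a ratio of 644 (115 to 25493), and CL5314.Contig1 differed 41.8-fold (17.6 to 130.2). Their E-values were smaller in Nr (1e-83 and 9e-84) than in Swiss-Prot (2e-11 and 1e-11), so the MSP name is the weaker match.

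MFP1, a component of the fiber complex of Ascaris sperm that slows fiber growth in extracts, matched 15 unigenes, all higher in the male library and 13 under the size rule. The alpha and beta forms differed in their female counts. The 11 MFP1-alpha unigenes had 20092 male fragments and 0 female fragments, while the 4 MFP1-beta unigenes had 51405 male and 126 female fragments. Unigene30669 was the most abundant beta form, at 1968 FPKM in the male worm against 0.144 FPKM in the female worm (4 fragments), a ratio of 13659 (5334 to 50131). Unigene30674 was the most abundant alpha form, at 1446 FPKM in the male library.

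Of the 126 female MFP1-beta fragments, 121 lay on CL2135.Contig4. That unigene stood at 28.1 FPKM in the male worm against 6.11 FPKM in the female worm, a 4.604-fold difference (3.77 to 5.66). Its log2 ratio of 2.03 put it just inside the size threshold. CL2135.Contig3, also a beta form, had 2.74 FPKM in the male worm against 0.0334 FPKM in the female worm, where it had 1 fragment, a ratio of 81.9 (14.3 to 3277). Contigs of cluster CL2135 thus differed in ratio.

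The alpha forms came with many unigenes of like description and length, whose sequences were not compared. Together with the matches to the MSP-domain protein 1 variant they made up 18 unigenes of 567 to 704 bases. Without the most abundant of each type, Unigene30674 and Unigene30695, the other 16 stood at 11.02 to 71.0 FPKM in the male library with 0 female fragments. CL1202.Contig1 led these at 71.0 FPKM, at least 272-fold higher in the male worm, followed by Unigene24196 at 45.4 FPKM, at least 185-fold higher. Cluster CL1202 alone contributed 7 of them, some described as MFP1-alpha and some as the MSP-domain protein 1 variant, so both names occur within 1 cluster.

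Sperm-specific class P and similar proteins, known from C. elegans sperm, were the match of 17 unigenes without an MSP name in Nr. All 17 were higher in the male library, 10 under the size rule, and 9 had 0 female fragments, with a median log2 ratio of 3.72. Unigene22576 stood at 659 FPKM in the male worm against 0.588 FPKM in the female worm, 1121-fold higher (590 to 2453). CL1296.Contig1 stood at 463 FPKM in the male worm against 0.0440 FPKM in the female worm, where it had 1 fragment, a ratio of 10517 (1887 to 415424). Unigene27618 had 129.8 FPKM in the male library and 0 female fragments, at least 918-fold higher. These 3 matched ZC168.6 in Swiss-Prot, the name that 23 members of the family shared.

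Among ssp unigenes with female fragments, the smallest fold differences lay in clusters that also held other subtypes. CL2135.Contig5, a match to SSP-31, had 8.03 FPKM in the male worm against 1.78 FPKM in the female worm, 4.53-fold higher (2.55 to 8.56), and its log2 ratio of 1.70 kept it outside the size rule. CL1164.Contig2 had 2.35 FPKM in the male worm against 0.476 FPKM in the female worm, 4.93-fold higher (2.14 to 13.2). CL1164.Contig4 of the same cluster had 18.5 FPKM in the male worm against 0.388 FPKM in the female worm, 47.6-fold higher (28.6 to 85.5). Outside such clusters, CL5049.Contig1, a match to ssp-32 with 2 female fragments, had 8.94 FPKM in the male worm against 0.0794 FPKM in the female worm, a ratio of 113 (30.8 to 936).

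VAP, the membrane anchor of the endoplasmic reticulum that carries an MSP domain in nearly all animal cells, was the subtype of 3 unigenes. Swiss-Prot named a VAP for 7 members, but those with an MSP-domain name in Nr were counted as MSP. Each of the 3 VAP unigenes was higher in the male library, and 2 met the size rule. Unigene8504 matched VAP in Swiss-Prot alone, and weakly (1e-08), while its Nr match is the protein F54H5.3 of C. elegans. It had 59.5 FPKM in the male worm against 0.335 FPKM in the female worm, 178-fold higher (89.9 to 412). CL1406.Contig2, a match to the VAP of Loa loa (5e-41), had 7.003 FPKM in the male worm against 0.211 FPKM in the female worm, 33.1-fold higher (20.2 to 58.4). CL1406.Contig1 had 2.45 FPKM in the male worm against 0.131 FPKM in the female worm, 18.8-fold higher (9.95 to 39.8).

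The cluster of the VAP contigs also held a longer contig without a name. CL1406.Contig4, of 5284 bases and outside the authors' calls, had 4.53 FPKM in the male worm against 2.33 FPKM in the female worm, a 1.94-fold difference (1.66 to 2.28). Contigs of the cluster therefore ranged from a 1.94-fold to a 33.1-fold male excess. CL1406.Contig4 was picked here after its values were seen.

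Both motile sperm domain unigenes went the other way. Of these, Unigene11245, a match to the Mospd2 protein of Brugia malayi, whose mammalian relative MOSPD2 tethers organelles to the endoplasmic reticulum, had 15.2 FPKM in the male worm against 62.9 FPKM in the female worm. The female excess was 4.14-fold (3.77 to 4.56), and its log2 ratio of -1.98 left it just outside the size rule. CL5721.Contig2, a match to motile sperm domain-containing protein 1, had 1.82 FPKM in the male worm against 5.25 FPKM in the female worm and was 2.89-fold higher in the female worm (2.24 to 3.75). The Nr best hit of this unigene was a horse protein, the sole member whose best hit named a vertebrate.

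The third member with a female excess was an MSP-domain match. CL1164.Contig3 had 0.571 FPKM in the male worm (13 fragments) against 2.65 FPKM in the female worm (65 fragments), 4.64-fold higher in the female (2.53 to 9.18). Its match was weak (1e-08), it stayed under 5 FPKM, and CL1164.Contig2 and CL1164.Contig4 were both higher in the male library.

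**Figure D3:**
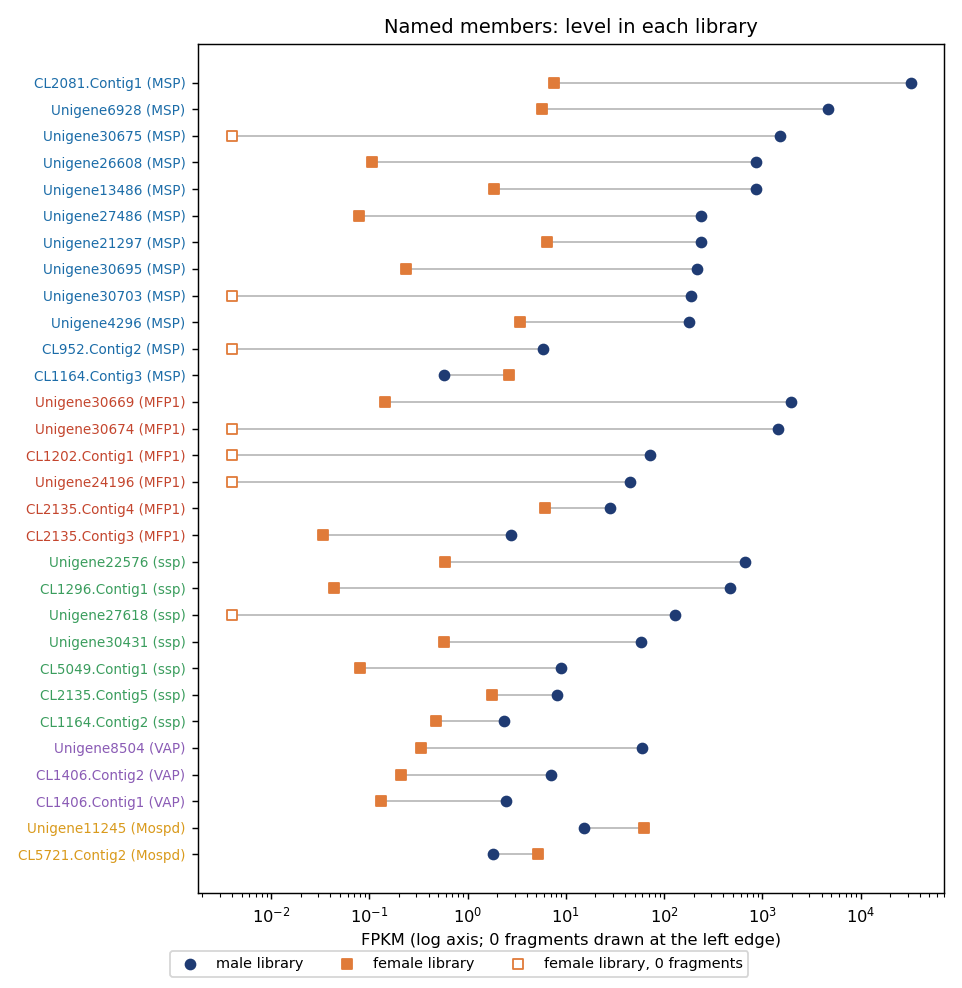
FPKM (log axis) of 30 members, their names coloured by subtype, in the male library (circles) and the female library (squares, open for 0 fragments). The circle lies right of the square for all but CL1164.Contig3, Unigene11245 and CL5721.Contig2, and the distance varies among members at like male levels, such as Unigene26608 and Unigene13486.

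The makeup of the family differed between the libraries. MSP unigenes held 82.3% of the male and 15.1% of the female fragments of the family. MFP1 held 12.7% of the male and 3.79% of the female fragments, and ssp 4.47% of the male and 1.68% of the female fragments. VAP held 0.353% of the male and 1.02% of the female fragments. The Mospd unigenes held 0.108% of the male and 78.4% of the female fragments, and in the female library Unigene11245 alone held 70.7%. Outside Mospd the female library had 718 family fragments in all, so female levels of most members rest on few fragments.

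**Figure D4:**
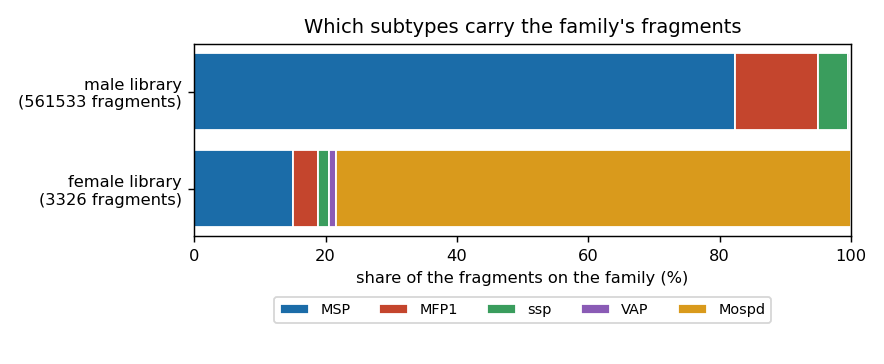
Share of the family's fragments (%) by subtype in the male library (561533 fragments) and the female library (3326 fragments). MSP leads in the male library with 82.3%, and Mospd leads in the female library with 78.4%.

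The 26 members with at least 1000 male fragments were picked by their male count alone, which favours a male excess. Their male excess ran from 37.0-fold for Unigene21297 to 13659-fold for Unigene30669. Of the 26, 8 had 0 female fragments, so that their ratios are lower bounds, and 6 had 1. The top of the range is therefore uncertain. Unigene30674, at 17528 male fragments, had no female fragment, whereas Unigene4296, at 1860 male fragments, had 38. The female fragments were thus not spread over members in proportion to their male level.

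Other annotation in the authors' table gave the family few shared labels. A molecular function from the Gene Ontology was listed for 40 of 99 members, and 25 carried the term structural molecule activity. The cytoskeleton was listed as location for 20 and the pseudopod for 1, CL2081.Contig1. The KEGG name was VAP B for 10 and VAP A for 2 of the 36 members with a KEGG definition, and none had a KEGG pathway. In Swiss-Prot 55 members matched a sperm-specific protein, 14 a major sperm protein, 7 a VAP and 5 retrotransposon-like protein 1, and 12 had no match.

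The names rest on matches of unequal strength. The wording searched for was in the Nr description alone for 21 members, in Swiss-Prot alone for 23 and in both for 55. Some of the 23 had a related Nr name in other words, such as Mospd2 protein for Unigene11245 (5e-131) and Protein SSP-31 for CL2135.Contig5. Among the 76 with the wording in Nr, 60 had an E-value of 1e-20 or smaller. The members shared 29 distinct Nr hits, and 53 were contigs of 20 clusters, so they are not independent of each other. Loa loa gave the best hit for 36 members, Ascaris suum for 34 and Brugia malayi for 16.

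Genes that act with these proteins outside the family were read from a list of 85 unigenes in the same table. Of these, 20 (23.5%) met the size rule on the male side and 3 (3.53%) on the female side, against 14.8% on the male and 7.84% on the female side in the table, with a median log2 ratio of 2.29 over the 41 whose mean reached 1 FPKM. All 11 unigenes of the sperm fiber proteins MFP2 and MFP3 met it on the male side, which leaves 9 of the other 74 (12.2%), close to the share of the table. MFP2 speeds fiber growth in Ascaris extracts and MFP3 stabilises the filaments. The 11 stood at 237 to 5436 FPKM in the male and 0 to 3.50 FPKM in the female library. CL4740.Contig1, an MFP2c match, held 80 of the 130 female fragments of these 11 and differed 75.7-fold (60.7 to 95.6). Unigene29084, with the same description, had 1149 FPKM in the male worm against 0.0612 FPKM in the female worm, from 2 female fragments, a ratio of 18775 (5197 to 155034).

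Genes of sperm development and function numbered 39, with 37 higher in the male library and 3 (7.69%) under the size rule, a smaller share than the 14.8% of the table. A TRP channel of the sperm surface, SPE-41, needed for fertilization in C. elegans, matched 24 of the 37, none with a female fragment, and 22 of these were contigs of the single cluster CL538. The 24 had a median of 0.513 FPKM in the male library, and 1 of them reached 5 FPKM. This most abundant SPE-41 contig, CL4722.Contig2, had 14.3 FPKM in the male library, at least 223-fold higher. Myosin VI (SPE-15), which sorts components during sperm formation in C. elegans, went both ways. CL3077.Contig1 had 32.8 FPKM in the male worm against 0.297 FPKM in the female worm, 111-fold higher (72.3 to 179). Unigene11210, with the same description, had 14.5 FPKM in the male worm against 38.4 FPKM in the female worm, 2.64-fold higher in the female worm (2.46 to 2.84). Both presenilin spe-4 unigenes and all 4 matches to the vesicle fusion protein fer-1 were higher in the male library at 4.35 FPKM or less there.

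The Eph receptor contigs with a name in the table were low in both worms, and one at like levels in both would not be listed. Eph receptors, the group that includes the oocyte MSP receptor VAB-1 of C. elegans, matched 5 contigs, all higher in the male library. They stood at 0.221 to 0.910 FPKM there and 0 to 0.375 FPKM in the female library. The VAB-1 match, CL6005.Contig1, was 2.42-fold higher in the male worm (1.53 to 3.93). The rest were contigs of the single cluster CL3671, with a protein kinase domain in Nr and an Eph receptor in Swiss-Prot. Ephrins, the membrane-bound ligands of these receptors, matched 3 unigenes, all higher in the female worm. Unigene14667 had 1.58 FPKM in the male worm against 19.1 FPKM in the female worm, 12.1-fold higher in the female (8.89 to 16.8). CL3545.Contig3 had 0.466 FPKM in the male worm against 6.75 FPKM in the female worm, a 14.5-fold female excess (9.33 to 23.7). Unigene20626 had 24.6 FPKM in the male worm against 52.1 FPKM in the female worm, a 2.12-fold female excess (1.92 to 2.35). CEH-18, a homeodomain protein that restrains oocyte maturation in C. elegans, matched 5 contigs, 3 of them higher in the male library.

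Lipid transfer proteins, some of which bind VAP at membrane contacts, numbered 22. Of these, 6 (27.3%) met the size rule on the male and 1 (4.55%) on the female side, against 14.8% on the male and 7.84% on the female side in the table. The phosphatidylinositol transfer protein Unigene30743 had 68.8 FPKM in the male library and 0 female fragments, at least 476-fold higher. Unigene13461, of the same kind, had 8.66 FPKM in the male worm against 34.98 FPKM in the female worm, 4.04-fold higher in the female worm (3.42 to 4.79). CL2403.Contig2, which matched protein retinal degeneration B in Swiss-Prot, had 0.303 FPKM in the male worm against 1.03 FPKM in the female worm. That was a 3.39-fold female excess (2.04 to 5.87). The oxysterol-binding protein match CL5264.Contig1 had 0.5005 FPKM in the male worm against 5.64 FPKM in the female worm, 11.3-fold higher in the female worm (7.29 to 18.3), and no longer met the size rule under TMM or median-of-ratios scaling. CL5264.Contig2 of the same cluster had 7.75 FPKM in the male worm against 3.66 FPKM in the female worm, 2.12-fold higher in the male (1.77 to 2.53).

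**Figure D5:**
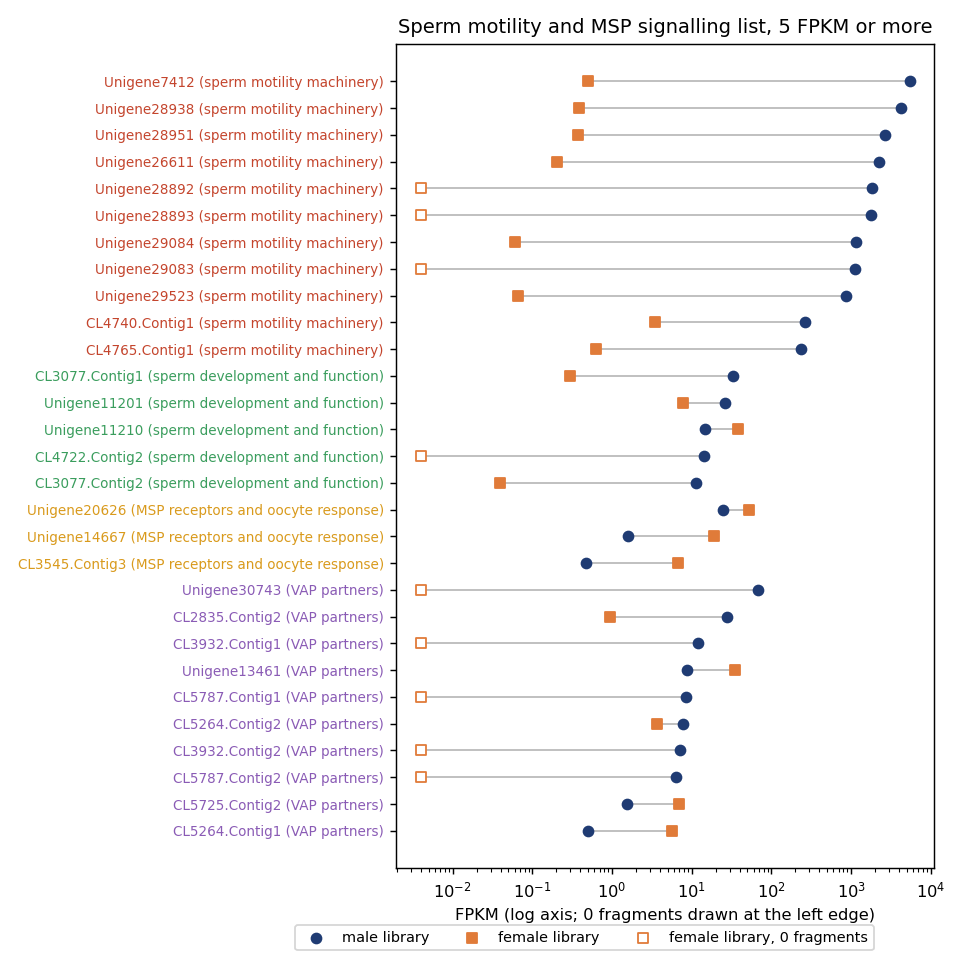
FPKM (log axis) in the male library (circles) and the female library (squares, open for 0 fragments) of the 29 listed unigenes outside the family with at least 5 FPKM in either library, their names coloured by role. The 11 sperm motility unigenes all have the circle far to the right, the 3 ephrin unigenes have it left of the square, and the other groups show both directions.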

How the data were processed

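RNA from an adult male and an adult female worm was sequenced as 1 library each; per the labels' protocols it was poly-A selected, fragmented, copied from random primers, size-selected and amplified. No assembler, aligner or counter is named in the labels or headers. Raw fragment counts, unigene lengths and FPKM were deposited for each unigene, per the file headers. The FPKM values equal count over length and library total within 5.0e-05. The authors' deposited table for 21280 unigenes adds the annotation, the authors' log2 ratio of female over male, and a p-value with its false discovery rate, at most 0.000994; the smallest log2 size is 1.00 and an FPKM of 0 was replaced by 0.001. The authors' deposited ratio was negative for 96 members and positive for 3.

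A unigene missing from a library's table was taken as 0 fragments. Fold differences are ratios of library shares with exact 95% Clopper-Pearson intervals; with a count of 0 they are lower bounds at 3 fragments per library. Intervals cover counting error only, and no test was run. Subtypes followed the Nr description, then Swiss-Prot. The members and lists were chosen with earlier results of these data known. In each subtype the text names up to 10 (MSP) or 4 (others) of the most abundant members, the outermost in each direction, those higher in the female library and those nearest the threshold, 30 in all; other members stand as examples of a class, chosen after their values were seen. The size rule was tested on simulated counts in which 200 unigenes at 5 FPKM or more were changed 8-fold or 32-fold. It recovered 99.5% of the 8-fold and 100.0% of the 32-fold changes. The simulation held counting error alone, so it says nothing on differences between animals. Alternatives covered scaling (TMM, median of ratios), thresholds, pseudocount, low-value filters, 1 unigene per cluster and Nr matches alone. TMM factors came from edgeR 4.0.16 under R 4.3.3 on the deposited counts; the rest used SciPy 1.17.1, pandas 2.3.3, NumPy 2.4.6 and matplotlib 3.10.9 under Python 3.11.15.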

Additional observations from a re-analysis of the deposited data

Results flagged for a closer look

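Contigs that share a cluster with members but carry no family name numbered 22, from 9 clusters, and 5 of them reached 5 FPKM in the male library, above what a count of 0 allows. In cluster CL1296, which holds 2 sperm-specific members, CL1296.Contig5 stood at 535 FPKM and CL1296.Contig3 at 419.6 FPKM in the male library with 0 female fragments, which puts Contig5 at least 1077-fold higher there and Contig3 at least 1683-fold. Their matches were to a glycine-rich protein and a proline-rich protein. CL1296.Contig4, a fibroin match, stood at 10.2 FPKM with 0 female fragments. CL2135.Contig1, without a protein match, had 8.10 FPKM in the male worm against 1.25 FPKM in the female worm, 6.47-fold higher (2.70 to 18.8). CL1406.Contig3, a contig of the VAP cluster without a match, had 5.84 FPKM in the male worm against 0.237 FPKM in the female worm, 24.6-fold higher (14.7 to 44.5). The cause of these values was not tested.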

How the results depend on the processing

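No paired analysis was possible because each sex has 1 library. The count of members past the size rule on the male side, 68 of 99, stayed between 47 and 73 under every setting tried, and no result changed direction. Of these settings, 1 unigene per cluster (57) and Nr matches alone (54 of 76) counted over fewer than 99 members. The share over the table is given at the main setting only. The female count of 0 became 2 at a 2-fold size and 1 with a pseudocount of 0.1 FPKM. The median log2 ratio of 4.25 became 5.90 when the mean had to reach 10 FPKM, 7.16 with a pseudocount of 0.1 FPKM and 6.39 with 0 counts at 3 fragments and no pseudocount. TMM scaling shifted all log2 ratios without a pseudocount by 0.41 and median-of-ratios scaling by 0.42 towards the male, which multiplies folds by 1.33 and 1.34 and gave family medians of 4.45 with each. Without CL2081.Contig1 the family took 1.57% of male fragments. With Nr matches alone it took 2.90% of male and 0.00456% of female fragments. All 17 ssp unigenes, which held 0.137% of male fragments, then drop out, as does Unigene11245, which held 0.0119% of female fragments. Unigene11245 drops out by wording alone, because its Nr name is Mospd2 protein. The CL5314 contigs, among others, also drop out. The listed genes outside the family, whose alternatives were chosen after seeing the data, gave 7 in place of 3 on the female side at a 2-fold size and 2 with TMM or median-of-ratios scaling, where CL5264.Contig1 fell under 5 FPKM in the female library. Depth limits the female side, where 56 members have 0 fragments and their ratios are lower bounds.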
